A study of Mus musculus with 6 samples.

Results

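Except for Kif1bp, a kinesin binding protein gene, the genes described here encode chains of kinesins, of cytoplasmic dynein or of its cofactor dynactin. Kinesins and dynein are motors, many of which carry cargo along microtubules. These genes are called motor genes here, though some encode subunits that are not motors. They were chosen by symbol alone, as each gene whose symbol starts with Kif and a digit or the letter c, Klc and a digit, Dync, Dynll or Dctn. This gave 59 of the 19401 genes listed in at least 1 library. RNA was sequenced from 6 pools of retina plus retinal pigment epithelium (RPE) of male 5XFAD mice at 9 months of age, a model of Alzheimer's disease, to ask which transcripts differ after low-dose efavirenz (EFV), an anti-HIV inhibitor of reverse transcriptase. The 3 EFV pools came from mice that drank EFV at 0.08 mg/kg body weight, as the labels give it, from 3 to 9 months of age (the study's methods give a different daily dose), and the 3 control pools came from mice given the aqueous detergent vehicle without the drug. Both groups were hemizygous for the 5XFAD transgenes, which encode mutant human amyloid precursor protein and presenilin 1, on the B6SJL background. As background, the transgenes are driven by the Thy1 promoter, which acts mainly in neurons. Each pool held tissue of 5 to 6 mice, so differences between mice within a pool were not measured. The labels call the tissue retina, and the study's methods add the RPE.

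Most kinesins walk toward the plus ends of microtubules, whereas cytoplasmic dynein, with its cofactor dynactin, walks toward the minus ends. In neurons the kinesin-1 and kinesin-3 families and dynein carry mitochondria, vesicles and proteins along axons, and in photoreceptors kinesin-2 and cytoplasmic dynein-2 move protein complexes along the connecting cilium. Other kinesins build the mitotic spindle or shorten microtubules, and are best known from dividing cells.

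With each gene's expected count rounded to a whole number, the total was 24590278, 23455167 and 24337444 in the control libraries and 24487218, 24360060 and 24160101 in the EFV libraries. Markers of retina were abundant in each library, and the summed level of 8 rod genes was 24530, 25310 and 25200 FPKM (fragments scaled to transcript length and library depth) in control and 24180, 25000 and 23570 FPKM in EFV. Cones, bipolar cells, ganglion cells, amacrine cells and Mueller cells were also present, with sums of at least 423, 547, 468, 258 and 1339 FPKM in each library. None of the tested markers of these retinal types (8 rod, 6 cone, 6 bipolar, 9 ganglion, 7 amacrine and 6 Mueller genes), of endothelium (6 genes) or of microglia (5 genes) had an unadjusted p of 0.05 or less in the edgeR quasi-likelihood test. Of 3 tested oligodendrocyte markers, Mbp passed that limit. The summed level of those 7 oligodendrocyte markers was 17.4, 18.8 and 18.6 FPKM in control and 21.1, 18.6 and 25.3 FPKM in EFV.

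Control replicates 3 and 2 stood apart in tissue makeup. The 11 lens markers summed to 45.8, 99.8 and 3524 FPKM in control replicates 1, 2 and 3, and to 106, 29.7 and 163 FPKM in the EFV replicates. All 10 lens markers tested were lower in EFV with an unadjusted p of 0.05 or less, and the most abundant, Cryaa, stood at 16.4, 35.3 and 1341 FPKM in control and 43.5, 10.7 and 73.7 FPKM in EFV. The 10 RPE markers summed to 61.3, 32.2 and 56.9 FPKM in control and 53.6, 68.4 and 69.6 FPKM in EFV, with control replicate 2 lowest. Of these 10, 9 were higher in EFV and 2 (Rpe65 and Lrat) passed the p limit, and the most abundant, Ttr, stood at 31.2, 14.5 and 29.0 FPKM in control and 27.8, 32.9 and 34.4 FPKM in EFV. No lens or RPE marker was at 0 in each of the 6 libraries. The part of these differences in the motor gene results was not tested. Without control replicate 3, and likewise without control replicate 2, 0 of 56 motor genes passed the limits of the study (given below) by edgeR, beside 523 of 15435 and 389 of 15423 of all genes, and their median log2 fold change was 0.02 and 0.01. Without control replicate 1 or EFV replicate 1, 2 of 56 passed (Dync1li2 and Kif6, then Kif13b and Kifc2), beside 576 of 15432 and 434 of 15437 of all genes. Without EFV replicate 2 or 3, 1 of 56 passed (Dync1li2, then Dctn5), beside 540 of 15415 and 557 of 15381.

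In sum the motor genes differed little between groups. Together they took 0.673%, 0.679% and 0.679% of the counts in control and 0.684%, 0.697% and 0.685% in EFV. Their summed level was 1591, 1564 and 1573 FPKM in control and 1583, 1601 and 1593 FPKM in EFV. The share of counts was higher in each EFV library than in each control library, by a small margin, while the FPKM sums overlapped. In whole tissue, fewer cells of a type and less RNA per cell cannot be told apart in such values. By mean FPKM over the 6 libraries, 34 members stood at 10 or more, 10 from 1 to under 10, and 15 under 1, and 14 were in the top 10% of the genes tested. The plot of levels by library shows the range, from Klc1 at 172 to 184 FPKM down to Kif18b at 0.02 to 0.12 FPKM.

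**Figure D1:**
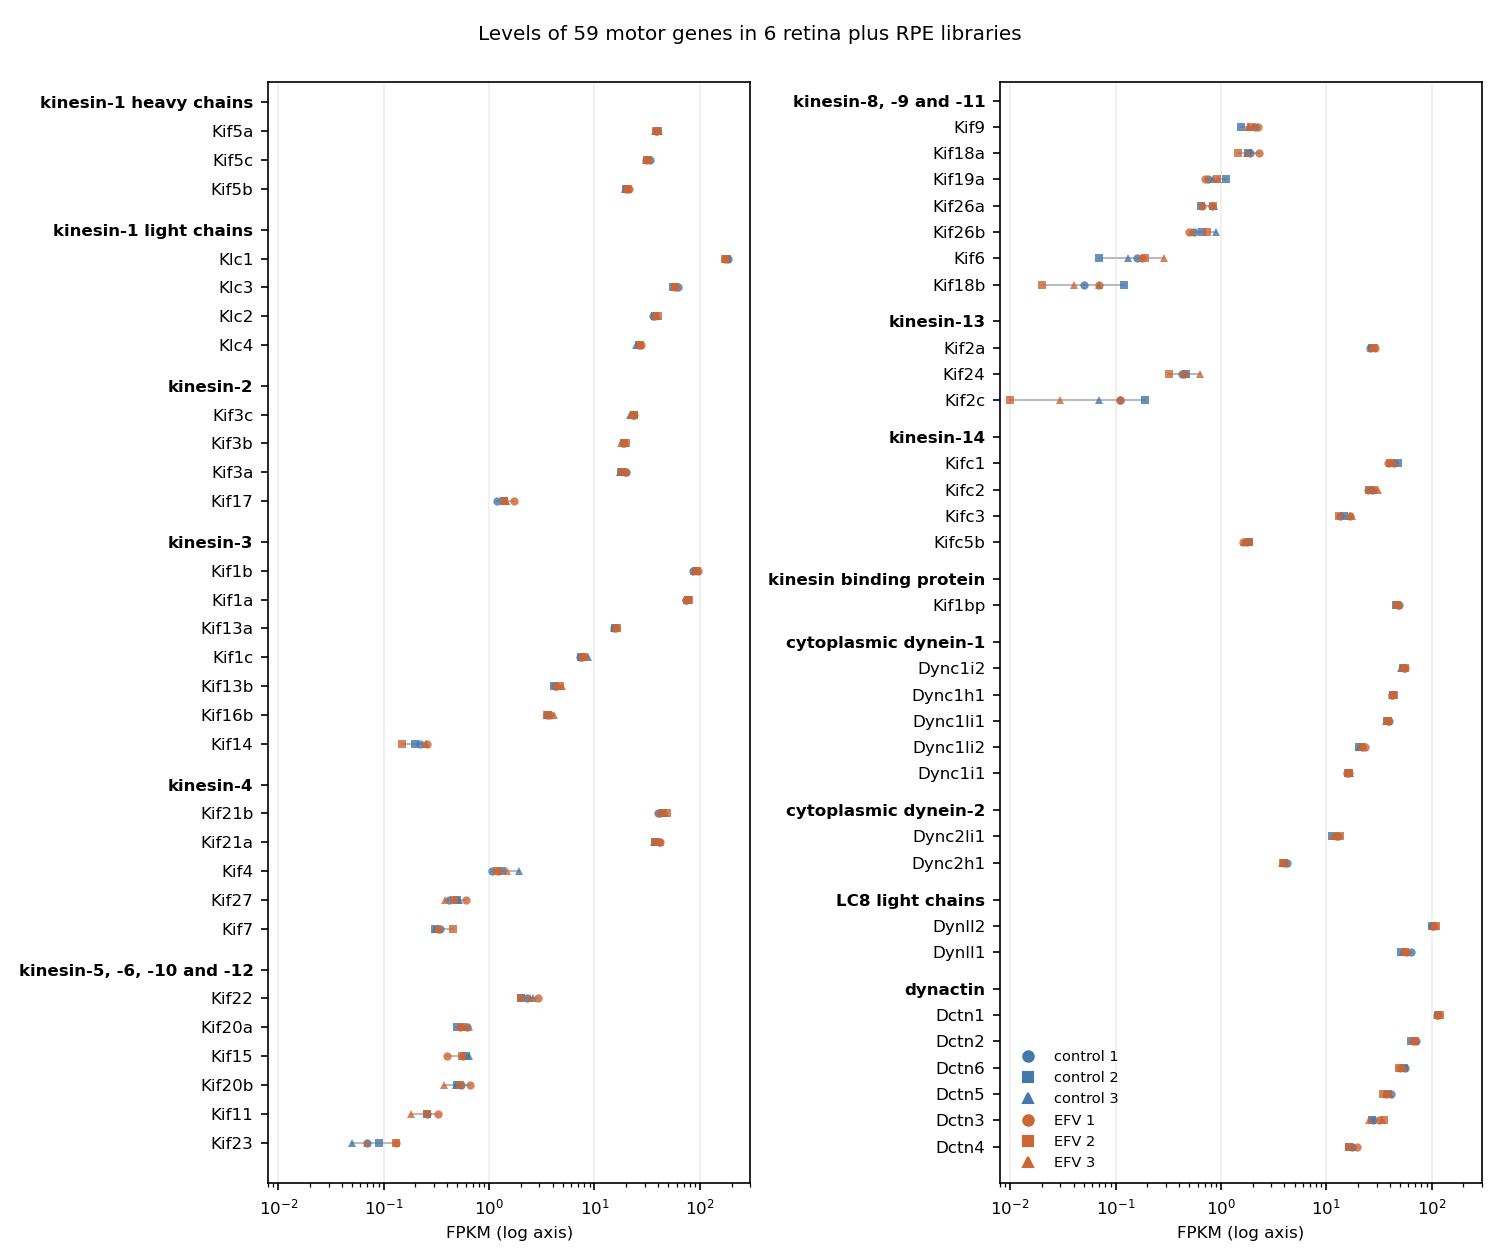
FPKM of the 59 motor genes (log axis) in each of the 3 control (blue) and 3 EFV (orange) libraries, grouped by role and ordered by mean level, with a grey line from the lowest to the highest library. The 6 points lie close together for most genes above 10 FPKM, least so for Dctn3 and Kifc3. For most genes below 1 FPKM, where counts were few, they spread out more.

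The comparison of EFV with control was tested for the 56 members with at least 10 counts in at least 3 libraries, within a fit of 15537 genes. Kif18b, Kif23 and Kif2c, spindle kinesins with at most 13 counts in a library, were left out. By edgeR's quasi-likelihood test with Benjamini-Hochberg adjustment, 0 of 56 members reached an adjusted p of 0.05, beside 0% of all genes tested. The smallest adjusted p was 0.999 among the members and 0.323 among all genes. At an unadjusted p of 0.05 or less, 1 of 56 members was called, Dync1li2, beside 3.04% of all genes. The study's limits were then applied to this test. They are a p of 0.05 or less and a rise of at least 7% or a fall of the same fold. By these limits 0 of 56 members passed, beside 3.01% of all genes (228 higher and 239 lower in EFV).

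DESeq2 and limma also called few members, and a Poisson model more. DESeq2 called 0 of 56 at an adjusted p of 0.05, beside 0.0708% of all genes, and 0 of 56 at an unadjusted p of 0.05, beside 1.74%. A limma test on log2(FPKM + 0.1) called 0 members and 0 of all genes at an adjusted p of 0.05, and 1 of 56 at an unadjusted p of 0.05, beside 3.19% of all genes. A Poisson model, in which variation between pools has no term, called 4 of 56 at an adjusted p of 0.05, beside 13.1% of all genes, 18 of 56 at an unadjusted p of 0.05, beside 25.1%, and 3 of 56 past the study's limits, beside 14.8%. The members' share was at or below the background by each of these rules except the unadjusted Poisson p, where it was 32.1%.

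The differences were small for most abundant members, while some scarce ones had larger values with wide intervals. The median log2 fold change of EFV over control was 0.01 over the 56 members and 0.00 over all genes, and 32 of 56 members had a value above 0, beside 50.5% of all genes. The median size of the change, whatever its sign, was 0.04 for the members and 0.06 for all genes on the log2 scale. For 36 of 56 members the 95% interval of the change lay between a rise of 20% and a fall of the same fold, beside 54.2% of all genes. The members tested had a median count of 1509 per library against 559 for all genes, and deeper counts narrow the interval. Among the 34 members at 10 FPKM or more, 32 had such an interval, beside 87.8% of the 6648 genes at that level. The exceptions were Dctn3 and Kifc3, which varied most between pools. In the plot of differences, the intervals of the abundant transport motors lie inside the 20% band, and those of the scarce kinesins extend beyond it.

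**Figure D2:**
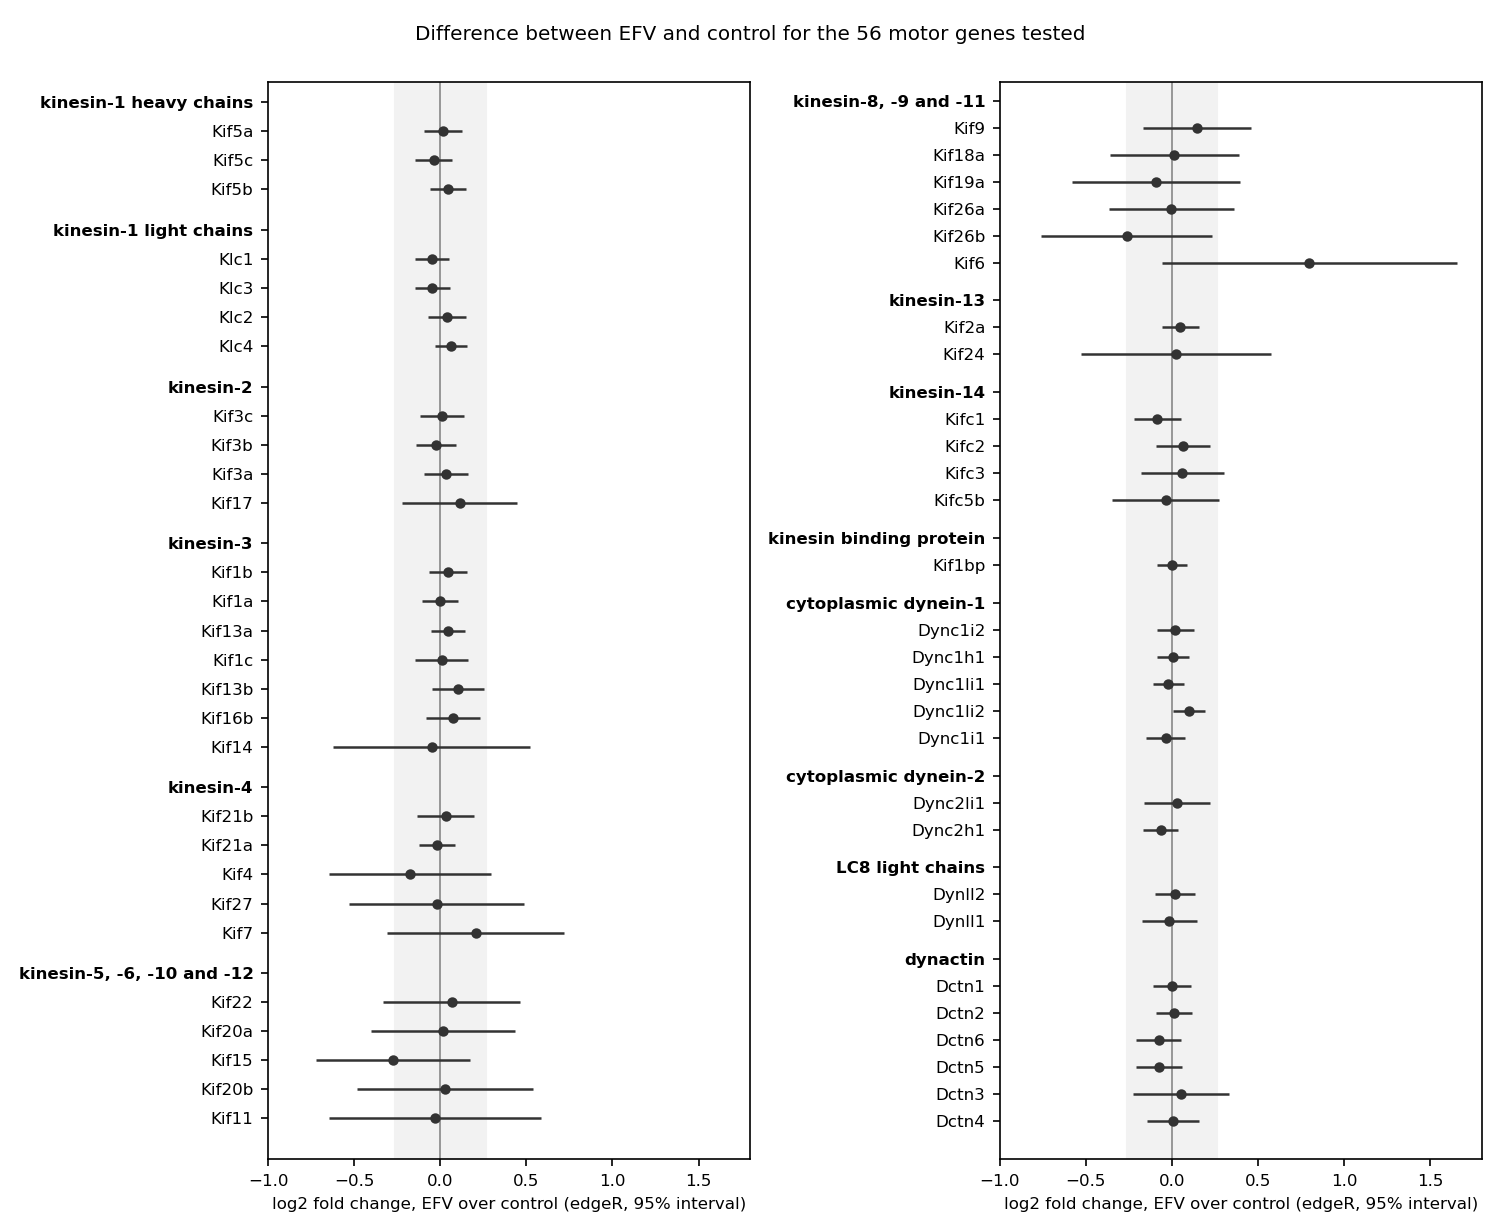
Log2 fold change of EFV over control (points) with its 95% interval (lines) for the 56 motor genes tested by edgeR, grouped by role and ordered by mean level. The shaded band runs from a rise of 20% to a fall of the same fold, and 36 of the 56 intervals lie within it.

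By counts scaled for library size (CPM), the 2 groups of 3 libraries had no overlap for 5 of 56 members, beside 8.14% of all genes. The EFV libraries were higher for 3 of 56 (Dync1li2, Klc4 and Kif6), beside 3.95%, and lower for 2 of 56 (Dync2h1 and Kif15), beside 4.18%. The members' shares, 5.36% and 3.57%, were near the background, and so are no result about motor genes as a group. The 5 genes are described under their roles.

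**Figure D3:**
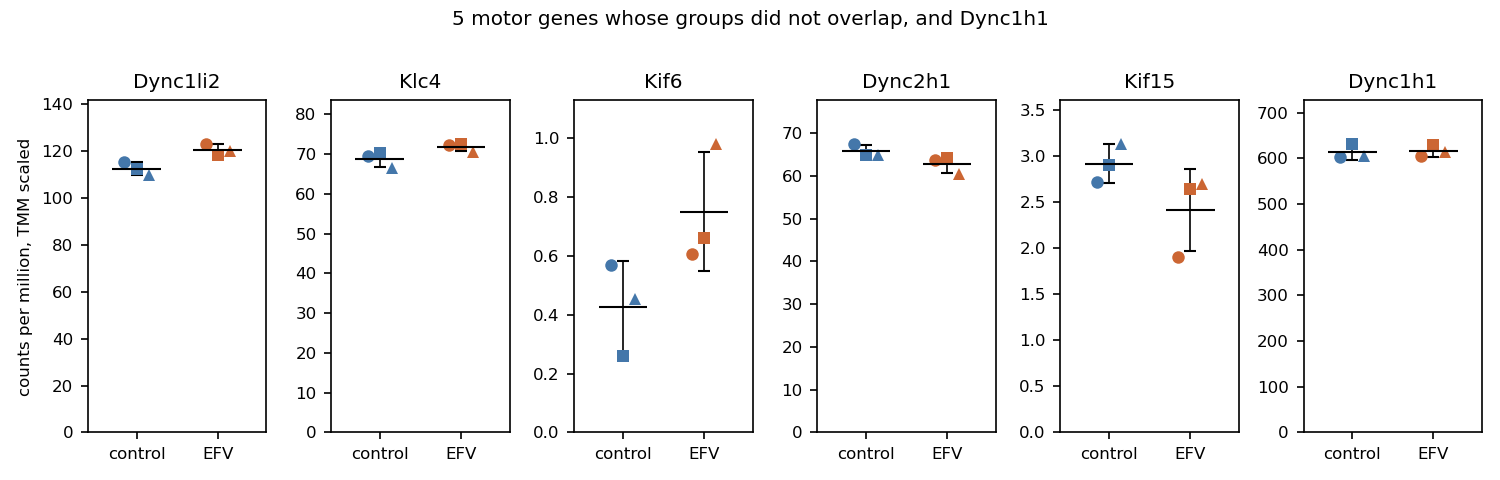
Counts scaled for library size by TMM (CPM) in each library for the 5 motor genes whose groups did not overlap, and for Dync1h1, with the mean (horizontal line) and SD (error bars, n = 3) of each group. The gap between the closest libraries of the groups is small beside the level for Dync1li2, Klc4, Dync2h1 and Kif15. The groups of Dync1h1 overlap.

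Kinesin-1 is a motor of 2 heavy chains, which walk, and 2 light chains, which bind cargo. Of the heavy chain genes, Kif5a, which is mainly neuronal, stood at 38.4, 39.8 and 37.7 FPKM in control and 39.4, 38.1 and 41.3 FPKM in EFV. Kif5c, also mainly neuronal, stood at 33.6, 31.4 and 30.8 FPKM in control and 31.0, 31.9 and 31.5 FPKM in EFV. Kif5b, which most cells express, stood at 20.1, 19.9 and 19.3 FPKM in control and 21.5, 20.7 and 19.7 FPKM in EFV. The order Kif5a, Kif5c, Kif5b held without overlap over the 6 libraries, and the groups overlapped for each gene. Their log2 fold changes were 0.02, -0.04 and 0.04 with SEs of 0.049, 0.048 and 0.047.

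The light chains were more abundant than the heavy chains in sum, though not gene by gene. Klc1, a light chain enriched in neurons, was the most abundant of the 59 members, at 184, 181 and 175 FPKM in control and 172, 174 and 181 FPKM in EFV. Klc3 stood at 62.2, 56.2 and 58.1 FPKM in control and 57.5, 58.3 and 56.6 FPKM in EFV, and 28.1% of its exonic bases lie on the opposite strand of exons of Ercc2. The library protocol in the labels describes no step that marks strand, and without strand the reads from such a stretch cannot be assigned to either gene. Klc2 stood at 35.8, 37.3 and 39.0 FPKM in control and 37.6, 40.1 and 38.8 FPKM in EFV. The groups overlapped for these 3 genes, whose log2 fold changes ran from -0.05 to 0.04.

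Klc4 was the light chain whose groups stood apart, at 26.5, 26.3 and 24.8 FPKM in control and 27.6, 27.3 and 26.7 FPKM in EFV. The lowest EFV library lay just above the highest control library, and control replicate 3 was the lowest of the 6. The log2 fold change was 0.06 (SE 0.041), with an adjusted p of 0.999 by edgeR. Without control replicate 3 it was 0.04, and without control replicate 2 it was 0.08. The summed light chains were 3.22 to 3.38 times the summed heavy chains in FPKM over the 6 libraries, one of 11 ratios computed after the levels were known.

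Kinesin-2 drives transport along the cilium and in the cytoplasm. Kif3c stood at 23.3, 23.7 and 21.8 FPKM in control and 24.0, 23.9 and 22.0 FPKM in EFV, and Kif3b at 18.8, 19.2 and 19.4 FPKM in control and 19.2, 19.9 and 17.9 FPKM in EFV. In both genes the groups overlapped, and replicate 3 of EFV was the lowest or next to lowest. Kif3a, the partner of Kif3b and of Kif3c, averaged 18.5 FPKM in control and 19.2 FPKM in EFV and overlapped Kif3b. Kif17, a homodimer of the same family, was scarce at 1.19 to 1.72 FPKM. The 4 log2 fold changes lay between -0.03 and 0.11. Of the exonic bases of Kif3c, 35.3% lie opposite an antisense gene, 1110002L01Rik.

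Kinesin-3 carries synaptic vesicle precursors and other membrane cargo over long distances. Kif1b, which also carries mitochondria, stood at 86.1, 90.9 and 90.2 FPKM in control and 94.99, 94.7 and 88.7 FPKM in EFV. Kif1a, the motor of synaptic vesicle precursors, stood at 74.3, 76.5 and 75.7 FPKM in control and 74.1, 78.9 and 76.0 FPKM in EFV. The groups overlapped for both, and the log2 fold changes were 0.04 (SE 0.049) and 0.00 (SE 0.046). For Kif1b the unadjusted p was 0.402 by edgeR and 3.8e-08 by the Poisson model, which has no term for variation between pools. Kif1b was above Kif1a in each library, by 1.16 to 1.28 times. The other 5 members ranged down from Kif13a (15.2 to 16.4 FPKM) through Kif1c, Kif13b and Kif16b to Kif14 (0.15 to 0.26 FPKM), which acts in cell division. Kif13a, chosen after its values were seen, stood apart in FPKM but overlapped in scaled counts.

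Kinesin-4 holds both transport motors and regulators of microtubule growth. Kif21b stood at 40.4, 44.9 and 47.1 FPKM in control and 42.2, 48.4 and 47.0 FPKM in EFV, with replicate 1 the lowest of each group. Kif21a stood at 41.2, 37.7 and 36.7 FPKM in control and 41.4, 37.8 and 41.9 FPKM in EFV. Its groups overlapped, with control replicate 1 and EFV replicates 1 and 3 above the other 3 libraries.

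The split of Kif21a among libraries was in transcript length, not in counts. Its expected counts were 5476, 5226 and 5279 in control and 5389, 5494 and 5213 in EFV, a CV of 2.50% in scaled counts. The mean transcript length estimated for the gene was 5453, 5955 and 5962 bases in control and 5360, 6027 and 5200 bases in EFV. The 3 libraries with the shorter length are the 3 with the higher FPKM, since FPKM divides the count by that length. The longest estimate was 1.16 times the shortest, the widest ratio among the members at 10 FPKM or more. The file lists 17 transcripts for Kif21a (Entrez 16564, chromosome 15, 90933275 to 91050382 in mm10), of which 12 are named BGI_novel. The log2 fold change was -0.02 (SE 0.046) in counts and 0.07 in log2(FPKM + 0.1), so the sign depends on the unit. For 48 of the 59 members the length differed by under 2% between libraries, as for Kif5a.

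**Figure D4:**
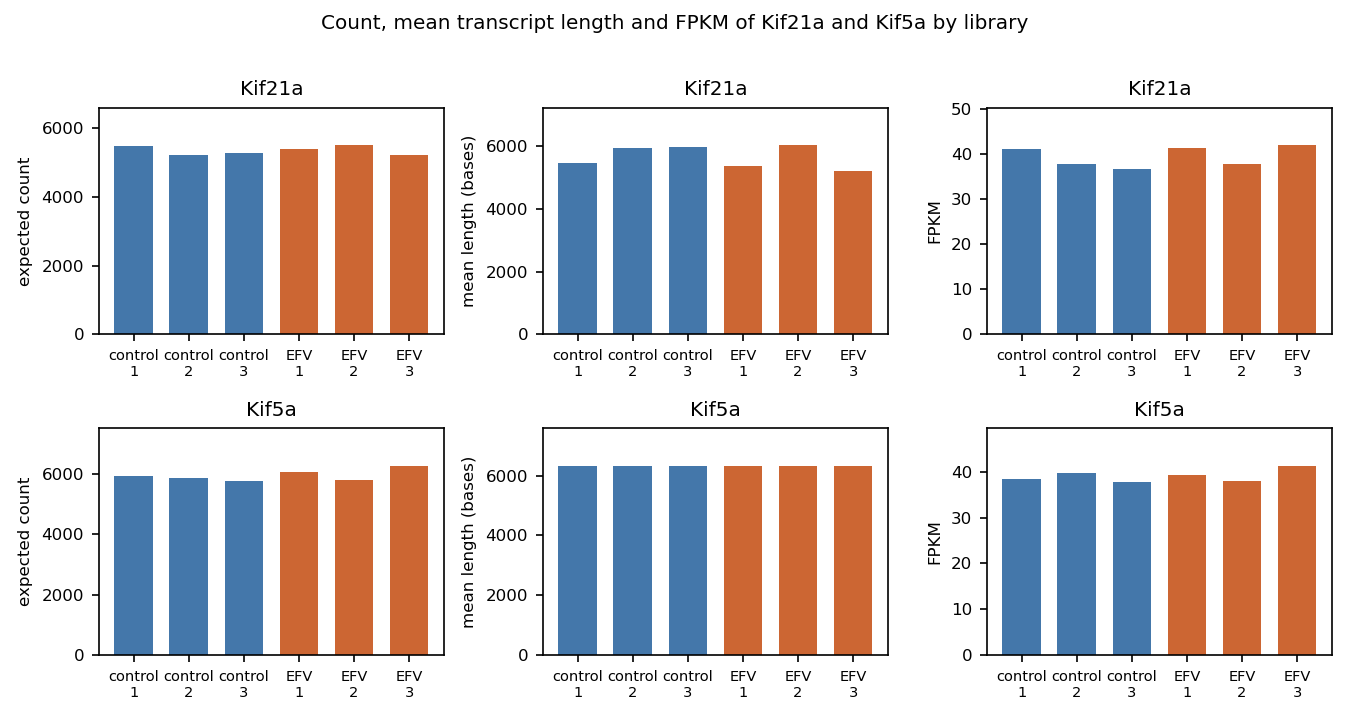
Expected count (left), mean transcript length in bases (middle) and FPKM (right) of Kif21a (top) and Kif5a (bottom) in the 3 control (blue) and 3 EFV (orange) libraries, each bar being 1 library. Kif21a has level counts, while its length runs from 5200 to 6027 bases and its FPKM mirrors it, and Kif5a has the same length in each library to within 1%.

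The last 3 kinesin-4 genes were scarce. Kif4, a chromosome motor of dividing cells, stood at 4.99, 6.24 and 9.03 CPM in control and 5.63, 5.58 and 6.74 CPM in EFV. Control replicate 3, the library with the most lens RNA, was the highest, and the groups overlapped. On the log2 scale EFV over control was -0.17 (SE 0.208) with that library, 0.09 without it and -0.35 without control replicate 1, and the part of lens tissue was not tested. Kif27 stood at 0.38 to 0.60 FPKM. Kif7, a regulator of Hedgehog signalling in the cilium, stood at 0.34, 0.31 and 0.31 FPKM in control and 0.33, 0.45 and 0.33 FPKM in EFV, with EFV replicate 2 alone above the rest. Its log2 fold change was 0.21 (SE 0.228), and 0.03 without that library.

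The kinesin-5, kinesin-6, kinesin-10 and kinesin-12 genes were low. Kif22, a chromosome motor, stood at 2.28, 2.00 and 2.63 FPKM in control and 2.92, 1.99 and 2.43 FPKM in EFV, and Kif20a, which acts in cytokinesis, at 0.50 to 0.65 FPKM with 29.3% of its exonic bases opposite exons of Cdc23. Kif11, Kif20b and Kif23 stood at 0.66 FPKM or less in each library. Kif15, a spindle motor, stood at 0.57, 0.60 and 0.65 FPKM in control and 0.40, 0.55 and 0.57 FPKM in EFV. In scaled counts each EFV library was below each control library, on 47 to 76 counts a library, and EFV replicate 1 was the lowest. The gap was narrow, from 2.70 CPM in EFV replicate 3 to 2.72 CPM in control replicate 1, and these libraries tied in FPKM. The log2 fold change of Kif15 was -0.27 (SE 0.197), with an adjusted p of 0.999 by edgeR. It was -0.13 without EFV replicate 1, -0.22 without control replicate 3, and ran to -0.36 with another library left out.

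Markers of dividing cells stood at mixed levels. Of 15 found, 9 were tested and none had an unadjusted p of 0.05 or less by edgeR. Mki67 and Top2a were at 0.03 FPKM or less in each library, and Cdk1 and Aurkb at 0.09 FPKM or less. Ect2 stood at 2.40 to 3.16 FPKM, Prc1 at 0.87 to 1.32 FPKM and Plk1 at 0.70 to 1.17 FPKM, above Kif15 in each library. The 15 markers summed to 63.0, 72.8 and 61.8 FPKM in control and 63.6, 56.2 and 61.4 FPKM in EFV. Most of each sum came from Bub1b, which stood at 55.8, 65.0 and 55.0 FPKM in control and 55.4, 48.6 and 53.7 FPKM in EFV. These 8 markers are named after their values were seen.

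In the kinesin-8, kinesin-9 and kinesin-11 families, Kif9, linked to motile cilia, stood at 2.12, 1.55 and 1.85 FPKM in control and 2.24, 1.93 and 1.82 FPKM in EFV, and Kif18a, a spindle motor, at 1.44 to 2.28 FPKM. Kif26b, a kinesin known from development, stood at 0.56, 0.66 and 0.89 FPKM in control and 0.50, 0.74 and 0.53 FPKM in EFV. For both Kif9 and Kif26b the groups overlapped. Control replicate 3 was the highest for Kif26b, whose log2 fold change was -0.26 (SE 0.220) with it and -0.06 without it. That value was -0.47 without EFV replicate 2 and -0.41 without control replicate 1.

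Kif6 had the largest log2 fold change of the 56 members on the fewest counts. It stood at 0.16, 0.07 and 0.13 FPKM in control and 0.18, 0.19 and 0.29 FPKM in EFV, from 6 to 24 counts a library. Each EFV library was above each control library, with control replicate 2 the lowest and EFV replicate 3 the highest. Its log2 fold change was 0.80 (SE 0.379), its 95% interval ran from -0.06 to 1.65, and the adjusted p was 0.999 by edgeR. It was 0.55 without control replicate 2, 0.56 without EFV replicate 3, 0.84 without control replicate 3 and 1.05 without control replicate 1. A change at this depth could be neither shown nor bounded closely.

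Of the kinesin-13 genes, Kif2a, which shortens microtubules in neurons and elsewhere, stood at 26.0, 27.1 and 26.8 FPKM in control and 28.8, 28.3 and 26.7 FPKM in EFV. EFV replicates 1 and 2 were above the controls and EFV replicate 3 was among them, with a log2 fold change of 0.05 (SE 0.047). Reads of Kif2a, Kif7 and Kif4 are also uncertain where 19.2%, 19.1% and 15.1% of their exonic bases lie opposite Dimt1, 9330171B17Rik and Pdzd11. Kif24 stood at 0.32 to 0.63 FPKM and Kif2c at 0.01 to 0.19 FPKM. Kif1bp, which encodes the kinesin binding protein, an inhibitor of several kinesins, stood at 48.4, 45.8 and 46.8 FPKM in control and 48.1, 47.2 and 47.2 FPKM in EFV. Its scaled counts varied by 1.46% over the 6 libraries, the least of the members at 10 FPKM or more, and the groups overlapped.

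The kinesin-14 genes walk toward the minus end. Kifc1 stood at 43.8, 47.6 and 41.5 FPKM in control and 38.8, 40.2 and 45.2 FPKM in EFV, and Kifc2, a neuronal member, at 26.9, 25.7 and 27.1 FPKM in control and 24.9, 28.3 and 31.0 FPKM in EFV. The groups overlapped for both, with log2 fold changes of -0.09 (SE 0.060) and 0.06 (SE 0.070). For Kifc1 it was -0.03 without control replicate 2, its highest library, and for Kifc2 it was -0.01 without EFV replicate 3 and 0.14 without EFV replicate 1. Kifc3 stood at 13.2 to 17.5 FPKM, and Kifc5b at 1.63 to 1.84 FPKM.

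Kifc1 is known as a spindle motor of dividing cells, and its level was far above that of the other spindle kinesins. The mean transcript length behind its FPKM was 1382 to 1467 bases, shorter than its coding sequence of 2022 bases, and 4 of its 5 listed transcripts are named BGI_novel. Its near copy Kifc5b has a coding sequence of 2016 bases, identical at 98.1% of aligned positions, and 39.8% of the stretches of 50 bases in Kifc1 transcripts occur in another gene, 38.6% in Kifc5b. How the reads were split between them is therefore uncertain, and the ratio of their FPKM, 22.0 to 26.8 over the 6 libraries, rests on that split. The pair printed here shows 100 bases of the coding sequence of each, in lower case with the bases that differ in capitals, where a run of 162 identical bases ends. They are from GENCODE M21 transcripts on GRCm38, for Kifc1 chr17:33883131-33883230 on the minus strand and for Kifc5b chr17:26924657-26924756 on the plus strand.
Kifc1: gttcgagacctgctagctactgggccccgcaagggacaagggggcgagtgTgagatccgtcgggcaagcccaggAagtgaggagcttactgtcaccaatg
Kifc5b: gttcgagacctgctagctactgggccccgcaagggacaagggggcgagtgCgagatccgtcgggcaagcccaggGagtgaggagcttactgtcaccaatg
A read that falls in such a stretch can be placed in either gene except where it covers a capital.

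Cytoplasmic dynein-1 is the main minus-end motor of the cell body and axon. Its heavy chain gene, Dync1h1, which encodes the motor domain, stood at 42.0, 43.3 and 42.0 FPKM in control and 42.4, 43.5 and 43.3 FPKM in EFV. The 6 libraries were within 42.0 to 43.5 FPKM and the groups overlapped. With 14591 to 15224 counts a library, the log2 fold change was 0.01 (SE 0.042), and its 95% interval ran from -0.09 to 0.10.

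The intermediate chains link the heavy chain to dynactin and cargo. Dync1i2, the form most cells express, stood at 54.7, 53.8 and 51.6 FPKM in control and 55.8, 55.8 and 52.4 FPKM in EFV, and the neuronal form Dync1i1 at 15.8, 16.3 and 16.9 FPKM in control and 16.4, 16.0 and 16.1 FPKM in EFV. The groups overlapped for both, and Dync1i2 was 3.05 to 3.48 times Dync1i1. Of the light intermediate chains, which bind cargo adaptors, Dync1li1 stood at 39.2, 37.7 and 37.8 FPKM in control and 38.5, 38.6 and 37.2 FPKM in EFV, again overlapping.

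Dync1li2 (Entrez 234663, chromosome 8, 104417674 to 104443050 in mm10), the other light intermediate chain, was the member closest to a call. It stood at 21.8, 20.5 and 20.4 FPKM in control and 23.2, 22.0 and 22.8 FPKM in EFV. The lowest EFV library, replicate 2, lay just above the highest control library, replicate 1. Its log2 fold change was 0.10 (SE 0.041, 95% interval 0.01 to 0.19), a difference of 6.98%, which is just under the study's limit of 7%, and 7.1% of its exonic bases lie opposite the antisense gene K230015D01Rik. The unadjusted p was 0.0399 and the adjusted p was 0.999 by edgeR's quasi-likelihood test. This difference was 0.08 on the log2 scale without control replicate 3 (unadjusted p 0.122 by edgeR) and 0.10 without control replicate 2 (unadjusted p 0.0799 by edgeR). It was 0.08 without EFV replicate 1 and 0.10 without EFV replicate 3 (unadjusted p 0.116 and 0.0582 by edgeR), and 0.10 by DESeq2 (unadjusted p 0.0771). By the Poisson model, which has no term for variation between pools, it was 0.10 (unadjusted p 1.2e-05), short of the study's limits. It passed the study's limits without control replicate 1 (0.12) or EFV replicate 2 (0.11), and with total counts only (0.11), at least 50 counts (0.10), limma on log2(FPKM + 0.1) (0.12) or limma on log2(FPKM + 1) (0.11). The ratio of Dync1li1 to Dync1li2 in FPKM was 1.797, 1.841 and 1.857 in control and 1.66, 1.752 and 1.631 in EFV. These ratios did not overlap, and the two-sided exact permutation p was 0.1, the smallest that 3 against 3 libraries can give, for 1 of 11 ratios computed. The ratio divides by the same Dync1li2 values, whose groups already stood apart, so it is no separate evidence.

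Cytoplasmic dynein-2 returns cargo along the cilium. Its heavy chain gene, Dync2h1, stood at 4.23, 3.95 and 4.07 FPKM in control and 3.95, 3.90 and 3.78 FPKM in EFV. By scaled counts it stood at 67.5, 65.0 and 64.9 CPM in control and 63.7, 64.2 and 60.5 CPM in EFV, so that each EFV library was below each control library by that scale, whereas control replicate 2 and EFV replicate 1 tied in FPKM. The log2 fold change was -0.07 (SE 0.044), with an adjusted p of 0.999 by edgeR. It was -0.04 without EFV replicate 3, the lowest library, -0.05 without control replicate 1, and -0.08 without any other library. Its light intermediate chain gene, Dync2li1, stood at 12.8, 11.2 and 12.4 FPKM in control and 12.4, 13.5 and 11.7 FPKM in EFV, overlapping. The dynein-1 heavy chain was 9.93 to 11.5 times that of dynein-2 in FPKM.

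The LC8 light chains Dynll1 and Dynll2 belong to dynein and bind many other proteins. Dynll2 stood at 100.4, 101 and 108 FPKM in control and 106, 109 and 102 FPKM in EFV. Dynll1 stood at 64.0, 51.4 and 53.7 FPKM in control and 56.8, 55.7 and 56.5 FPKM in EFV. The groups overlapped for both, and control replicate 1 stood above the other 5 libraries for Dynll1. The log2 fold changes were 0.02 (SE 0.051) and -0.02 (SE 0.070). For Dynll1 it was 0.08 without control replicate 1, -0.07 without control replicate 2 and -0.05 without control replicate 3. Dynll2 was 1.57 to 2.01 times Dynll1, with the lowest ratio in control replicate 1.

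Dynactin joins dynein to its cargo and keeps it on the microtubule. Dctn1, the large subunit that binds microtubules and the dynein intermediate chain, stood at 113, 114 and 116 FPKM in control and 113, 121 and 113 FPKM in EFV. Dctn2, the shoulder subunit dynamitin, stood at 71.2, 63.3 and 68.9 FPKM in control and 67.0, 69.1 and 69.8 FPKM in EFV. The groups overlapped, and the log2 fold changes were 0.00 (SE 0.048) and 0.01 (SE 0.045). Dctn1 was 2.62 to 2.78 times Dync1h1 in FPKM.

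The pointed-end subunits Dctn6, Dctn5 and Dctn4 and the shoulder subunit Dctn3 followed in level. Dctn6 stood at 56.2, 54.5 and 50.8 FPKM in control and 49.7, 49.4 and 54.4 FPKM in EFV, and Dctn5 at 41.3, 38.6 and 36.9 FPKM in control and 36.9, 34.5 and 40.2 FPKM in EFV. In both genes EFV replicates 1 and 2 were below the controls, for Dctn5 in EFV replicate 1 only just, and EFV replicate 3 was among them. The log2 fold changes were -0.08 for each (SEs 0.058 and 0.059), and with 1 library left out they ran from -0.12 to -0.05 for Dctn6 (-0.12 without control replicate 3) and from -0.13 to -0.03 for Dctn5. Dctn4 stood at 17.7, 16.4 and 17.8 FPKM in control and 19.5, 16.3 and 16.9 FPKM in EFV, with a log2 fold change of 0.01.

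Dctn3 varied the most of the members at 10 FPKM or more. It stood at 27.7, 27.2 and 33.4 FPKM in control and 31.9, 35.1 and 25.6 FPKM in EFV. Control replicate 3 and EFV replicates 1 and 2 were high, the other 3 libraries were low, and the groups overlapped over most of their range. Its scaled counts varied by 12.9% over the 6 libraries, against 3.89% from counting alone and a median of 3.8% for the 34 members at that level. The log2 fold change was 0.05 (SE 0.124). It was 0.15 without control replicate 3, 0.00 without control replicate 2, and ran from -0.06 without EFV replicate 2 to 0.17 without EFV replicate 3.

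The rest of the transport machinery was read from 4 lists of 87 genes, of which 82 were found and 79 tested. Their median log2 fold change was 0.00, and 7 of 79 had groups that did not overlap (2 higher and 5 lower in EFV), beside 8.14% of all genes. By edgeR 1 of 79 passed the study's limits, beside 3.01% of all genes. This was Dnaic2, an intermediate chain of axonemal dynein, at 0.77, 0.95 and 1.02 FPKM in control and 0.58, 0.66 and 0.68 FPKM in EFV. Each EFV library was below each control library, with a log2 fold change of -0.53 (SE 0.200) and an adjusted p of 0.999 by edgeR, and it no longer passed without control replicate 2, control replicate 3 or EFV replicate 1. None of 34 tested adaptors and regulators passed, the most abundant being Clstn1, a cargo linker of kinesin-1, at 263 to 306 FPKM. Nor did any of 16 other dynein and dynactin subunits, led by the light chain Dynlrb1 at 165 to 208 FPKM, or of 14 tubulins. The most abundant tubulin, Tuba1a, stood at 505, 471 and 490 FPKM in control and 480, 474 and 462 FPKM in EFV, a log2 fold change of -0.07 (SE 0.041). Of the 15 axonemal dynein genes tested, the most abundant, Dnal4, stood at 28.0 to 32.3 FPKM.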

How the data were processed

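The authors deposited expected counts and FPKM per gene for 6 libraries of poly-A RNA. The submitters' notes name the genome build mm10, HISAT2 2.0.4, Bowtie2 2.2.5 and RSEM 1.2.12; RSEM divides reads that match several genes. The members, gene lists and tests were chosen with earlier results of these data known. Expected counts were rounded to whole numbers and tested in R 4.3.3 with edgeR 4.0.16 (quasi-likelihood, TMM scaling, group as the only term, two-sided) over genes that reached 10 counts in 3 or more libraries, with Benjamini-Hochberg adjustment over all genes tested. The 95% intervals use the same fit. Alternatives were DESeq2 1.42.0, a Poisson model, limma 3.58.1 on log2(FPKM + 0.1) and log2(FPKM + 1), other scalings and filters, a replicate block, and leaving out each library. Pairs of libraries differed by more than counting noise, so none was counted as a repeat. Genes were named by rule: members past the study's limits, the 2 most abundant of each role, the 3 highest and 3 lowest log2 fold changes, and each kinesin-1, dynein-1, LC8 and dynactin gene; in the other lists, genes past the limits and the most abundant. Others (Kif3a, Kif17, Kif13a, Kif13b, Kif1c, Kif16b, Kif14, Kif27, Kif11, Kif20b, Kif23, Kif18b, Kif2c, Kifc3, Kifc5b, and marker genes) were named after their values were seen. Ratios, exon overlaps and shared stretches were computed from FPKM and GENCODE M21, and 1 overlap is not reported here.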

Additional observations from a re-analysis of the deposited data

How the results depend on the processing

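The median log2 fold change of the motor genes was 0.00 to 0.03 under other settings and -0.01 to 0.02 with 1 library left out. Those with an interval within 20%, a count chosen after seeing the data, numbered 35 to 36 and 32 to 34. At an adjusted p of 0.05, edgeR called 0 motor genes and 0 of all genes, against 4 and 2043 with the Poisson model and 0 and 11 with DESeq2. With 1 library left out it called 0 motor genes and 0 to 1 of all genes (1 without EFV replicate 1). Motor genes past the study's limits, 0 in the reported fit, numbered 3 with the Poisson model (Kif13b, Kif26b and Kif6) and 1, Dync1li2, with total counts only, at least 50 counts, limma on log2(FPKM + 0.1) or limma on log2(FPKM + 1). With 1 library left out they numbered 0 to 2, being Dync1li2 and Kif6 without control replicate 1, Kif13b and Kifc2 without EFV replicate 1, Dync1li2 without EFV replicate 2, Dctn5 without EFV replicate 3, and 0 without control replicate 2 or 3. All genes past the limits numbered 467, against 269 with DESeq2, 2305 with the Poisson model and 389 to 576 with 1 library left out, and total counts only split them 288 higher to 159 lower, against 228 to 239. For the other transport genes the count was 1, against 0 with DESeq2, 7 with the Poisson model and 0 to 5 with 1 library left out (0 without control replicate 2, 2 without control replicate 1 or 3, 3 without EFV replicate 2, 5 without EFV replicate 3). That gene, Dnaic2, no longer passed without control replicate 2, control replicate 3 or EFV replicate 1. The causes were not tested. With replicate number as a block the counts past the limits were 0 motor genes, 514 of all genes and 2 other transport genes (Capza1 and Dnaic2), with 0 at an adjusted p of 0.05, a motor gene median of 0.00 and 36 intervals within 20%. Deviations of same-numbered libraries correlated at 0.106, 0.079 and 0.105, each the best match of its library, but not all above 0.1, so the numbers were not taken to pair the samples. Of 628 values of the 42 named genes under alternatives, 61 had the other sign, 10 moved by at least the spread between replicates and 11 passed the limits. The 3 pools a group limit the precision, and scarce genes have wide intervals.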
